A study of Mus musculus with 20 samples.

Results

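Whole testis RNA of the window labelled stages X-XII of the cycle of the seminiferous epithelium was compared with whole testis RNA of the other 4 windows. Of the 20 arrays of the series, 10 carried whole testis RNA. The 2 arrays of window X-XII were set against the 8 of windows VIII-X, VI-VIII, II/III-VI and XII-II/III, each with 2 replicates. The other 10 arrays held Leydig cell polysomal RNA from the same homogenates.

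The cycle of the seminiferous epithelium is the repeating series of germ cell associations in a stretch of tubule. In the mouse, stages X to XII hold elongating spermatids, late pachytene and diplotene spermatocytes, and a younger generation that passes through early meiotic prophase, and the meiotic divisions take place in stage XII. Round spermatids, which build the acrosome, are found in earlier stages of the cycle. An unsynchronized testis holds all stages at once, so staged RNA needs a treatment that brings the tubules into step.

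All animals were male RiboTag-positive/Cyp17icre-positive mice of strain 129/C57BL6. RiboTag is a ribosomal protein allele that gains an HA epitope in cells with Cre recombinase, and Cyp17 iCre drives Cre in Leydig cells, the androgen-making cells between the tubules. Every group had received WIN 18,446, an inhibitor of retinoic acid synthesis, at 100 µg per g once a day for 7 days from day 2 after birth. All-trans retinoic acid (200 µg) was injected at day 9 after birth, and the testes were taken 42 to 50 days later. Each time point gave 1 testis, and 50 µl of its homogenate gave the whole testis RNA. Arrays of untreated mice were not analysed here, so each value compares one synchronized window with others. Nothing in the labels ties the replicates to litters or treatment days. Unless stated otherwise, the p-values weigh each difference against the spread between replicates of a window, in these samples only. The labels of XII-II/III replicate 1 conflict: its source name says X-II/III, and XII-II/III was taken here from its title and stage entry.

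The arrays gave linear RMA intensities, taken here as log2. The 5 arrays of replicate 1 and the 5 of replicate 2 appear to have been normalized as separate sets: 6.01% to 15.5% of the value pairs within a set were exactly equal, against at most 0.00388% across sets. Differences were therefore taken within sets. Statements below that rank an array among all 10 cross the sets, so narrow margins in them may reflect an offset between sets. The median log2 intensity of the 10 arrays lay between 9.18 and 9.22. The marker genes of the labelled tissue were present: 9 of 9 spermatid markers and 7 of 8 spermatocyte markers lay above the median of all genes. Sertoli, Leydig, peritubular myoid, macrophage and spermatogonial markers were measured as well, while Insl3, Lhcgr and Kdr were not among the genes tested.

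In X-XII, 12 of 46 genes of M phase and chromosome segregation were higher than the mean of the other windows, and 3 were lower. Among the higher ones was the kinase gene Aurkb. Of 30 acrosome genes, 8 were lower, among them Spam1 and Spaca1, and 2 were higher. Of the M phase genes, 31 had their highest window mean in XII-II/III and 3 in X-XII. The median acrosome difference was -0.06 from VIII-X and -0.003 from XII-II/III. Neither pattern can thus be called particular to X-XII. Over all genes, more decreases than increases were large. Of 14819 genes tested, 1152 were called higher (7.77%) and 1106 lower (7.46%), where called means a limma adjusted p under 0.05 after Benjamini-Hochberg adjustment over all genes. Among them, 28 were higher and 164 lower by at least 1 on the log2 scale, and 0 were higher and 15 lower by at least 2. The median difference of all genes was 0.02. In a whole testis extract, fewer cells of a type and less RNA per cell cannot be told apart.

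These calls came from a fit that kept the 5 windows apart, so that the spread was that between replicates of a window. When the 8 other arrays were treated as a single group, 0 genes were called in either direction by limma (188 higher and 181 lower at an unadjusted p under 0.05), and the 15 increases and 15 decreases named below then each had an adjusted p of 0.729. The calls also rested on both X-XII arrays: 85 higher and 303 lower calls were left without X-XII replicate 1, and 1 and 38 without X-XII replicate 2. Without VIII-X replicate 2 there were 569 and 692. Without XII-II/III replicate 1 there were 715 higher calls, and without XII-II/III replicate 2 there were 755.

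X-XII stood apart from the middle of the cycle and hardly from its neighbours. Against II/III-VI, 2695 genes were called higher (18.2%) and 2045 lower (13.8%). Against VI-VIII, 2970 were called higher (20%) and 2165 lower (14.6%). Without X-XII replicate 2 these counts were 1405 and 1257 against II/III-VI, and 1511 and 1155 against VI-VIII. Without X-XII replicate 1, those against II/III-VI were 1431 and 1341. Leaving out II/III-VI replicate 2 gave 1335 and 1155, and leaving out VI-VIII replicate 1 gave 1673 and 1294.

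Against VIII-X, the preceding window, limma called 0 genes higher (0%) and 0 lower (0%), with 763 higher and 867 lower at an unadjusted p under 0.05 and a smallest adjusted p of 0.451. The unadjusted counts were 170 and 245 without VIII-X replicate 2, and 181 and 233 without X-XII replicate 2. Against XII-II/III, the following window, which shares stage XII by name, 0 were called higher (0%) and 0 lower (0%), with 137 and 385 at an unadjusted p under 0.05 and a smallest adjusted p of 0.503. The unadjusted counts were 409 and 495 without XII-II/III replicate 1, and 87 and 206 without XII-II/III replicate 2. Against the mean of both neighbours the counts were 0 (0%) and 0 (0%), with 159 and 360 unadjusted. Without VIII-X replicate 1 this comparison had 3 genes called lower. A difference of at least 1 on the log2 scale was measured for 62 genes against VIII-X, 11 against XII-II/III, 843 against II/III-VI and 893 against VI-VIII. Missing the threshold does not show that neighbouring windows were equal.

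**Figure D1:**
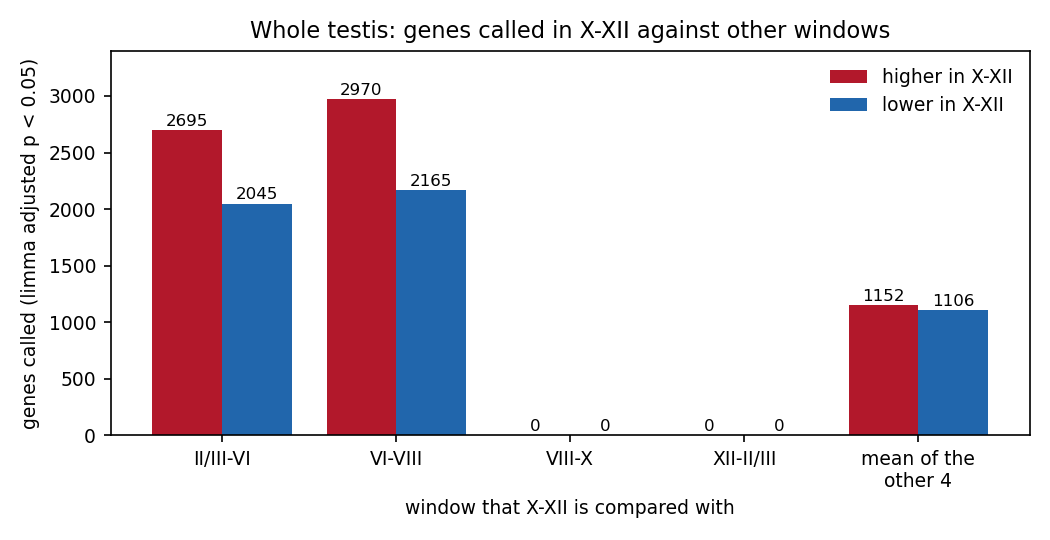
Number of genes called higher (red) and lower (blue) in whole testis X-XII against each other window and against the mean of the other 4, by limma at an adjusted p under 0.05 over 14819 genes. The bars reach 2970 and 2165 against VI-VIII and stand at 0 against VIII-X and XII-II/III.

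The array profiles also set the 2 neighbouring windows apart from the 2 others. Over 25803 probe sets, X-XII replicate 1 correlated at 0.997 with VIII-X replicate 1 and at 0.996 with XII-II/III replicate 1, but at 0.960 with II/III-VI and 0.957 with VI-VIII of the same replicate. X-XII replicate 2 correlated at 0.996 with XII-II/III replicate 2, at 0.986 with VIII-X replicate 2, at 0.956 with II/III-VI replicate 2 and at 0.960 with VI-VIII replicate 2. The nearest window thus differed between the replicates, VIII-X in replicate 1 and XII-II/III in replicate 2. The 2 X-XII arrays correlated at 0.994. These are correlations across probe sets, whose levels all arrays share, and serve as a description.

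Of the 1152 genes called higher, 616 (53.5%) had their highest window mean in X-XII, 310 (26.9%) in XII-II/III and 226 (19.6%) in VIII-X, and 0 in the other windows. Their median difference was 0.59 from II/III-VI and 0.67 from VI-VIII, but 0.12 from VIII-X and 0.06 from XII-II/III. Of the 1106 called lower, 811 (73.3%) had their lowest mean in X-XII, 176 (15.9%) in VIII-X and 119 (10.8%) in XII-II/III. Their median difference was -0.77 from II/III-VI, -0.78 from VI-VIII, -0.16 from VIII-X and -0.13 from XII-II/III. The levels of X-XII thus lay nearer to those of VIII-X and XII-II/III than to those of the other windows. These values describe genes that the same arrays picked out.

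Over all 14819 genes tested, the X-XII array lay above the other 4 arrays in both replicate sets in 907 and below them in 760. Of the genes called higher, 324 lay above in this way, and of those called lower, 521 lay below. Among these, the 15 with the largest increase had folds of 1.71 to 2.73, and the 15 with the largest decrease had folds of 3.82 to 5.73. In Cldn34b4, Serpina3a and Adam26a both X-XII values lay under 8.15 log2 units, the 25th percentile that a gene had to pass in at least 1 window, so they were tested through the windows where they were high and their folds are uncertain. All 15 increases were lost without either X-XII array. Of the 15 decreases, 13 were still called without X-XII replicate 1. Without X-XII replicate 2, Cldn34b4, Fam24b and Stambpl1 were still called.

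**Figure D2:**
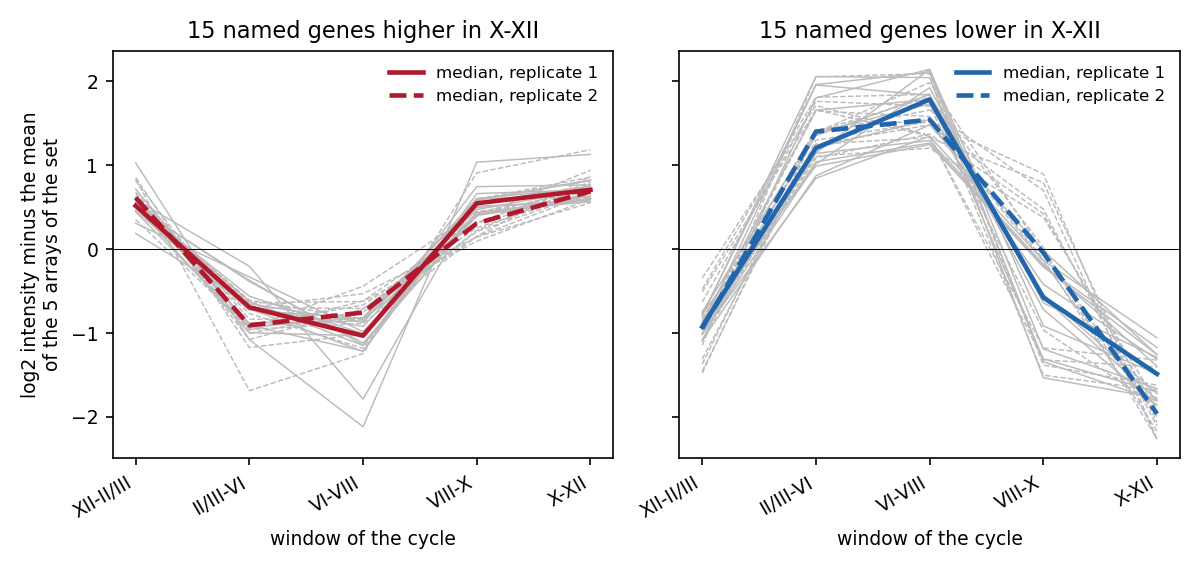
Profiles of the 15 named genes higher (left) and the 15 lower (right) in X-XII over the 5 windows, as log2 intensity minus the mean of the 5 arrays of the set, with a grey line for each gene and replicate and thick lines for the medians of replicate 1 (solid) and replicate 2 (dashed). The genes on the left are low in II/III-VI and VI-VIII and high from VIII-X to XII-II/III, and those on the right are high in II/III-VI and VI-VIII and lowest in X-XII, with a wide range in VIII-X.

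Gramd2, a gene of the GRAM domain family, had the largest increase of the 15. Its log2 intensity was 11.04 and 11.10 in X-XII replicates 1 and 2, and 7.79 at the lowest, 9.79 at the median and 10.94 at the highest of the other 8 arrays. Both X-XII arrays lay above all others, and the highest of those was VIII-X replicate 1. The difference was 1.45 ± 0.25 (SE), with a limma adjusted p of 0.0164. Against VIII-X it was 0.18 ± 0.31, a value smaller than its error.

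B4galt6, a galactosyltransferase that makes lactosylceramide, had 9.57 and 9.61 in X-XII, and 7.50, 8.43 and 9.55 at the lowest, median and highest of the others. Again both arrays lay above all others, the nearest by a narrow margin. The difference was 1.07 ± 0.13 (SE; limma adjusted p = 0.0071). Its means in II/III-VI and VI-VIII, 7.65 and 7.71, lay under the filter of 8.15 log2 units. The gene was thus tested through the windows where it was high, and the size of its increase is uncertain.

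Rassf1, a Ras-association domain protein that binds microtubules, had 10.81 and 10.73 in X-XII, against 9.13, 10.10 and 10.61 in the others. Its difference was 0.84 ± 0.10 (SE; limma adjusted p = 0.00723). The nearest value was that of VIII-X replicate 1, as for Gramd2 and B4galt6. Nmbr, the receptor of the peptide neuromedin B, had 10.67 and 10.71 in X-XII against 9.24, 9.76 and 10.63, a difference of 0.79 ± 0.09 (SE; limma adjusted p = 0.00714).

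Other increases among the 15 concerned H2bc21, an H2B histone (0.89), Ppp1r27, a regulatory subunit of protein phosphatase 1 (0.93), Castor1, an arginine sensor of the mTORC1 pathway (0.79), Ptcd1, a mitochondrial RNA-binding protein (0.82), Prss43, a testis serine protease (0.80), and Apba1, an adaptor protein (0.77). Gm5134, D030056L22Rik and Macroh2a3 had 0.86, 0.82 and 0.80. Hmgb1-rs17 (1.05) and Kif4-ps (1.02) carry names of related sequences or pseudogenes, so their probes may read transcripts of Hmgb1 or Kif4, and their values are uncertain for that reason.

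A few sequences from the promoter table show what lies ahead of the start of genes on both sides of the comparison. They come from RefSeq promoters of build GRCm38.p6, are written 5′ to 3′ on the gene's strand, and carry in capitals the letters CAACTG, the core of a MYB motif, or their reverse complement CAGTTG. Gramd2 and Ccnb3 were higher in X-XII, and Stambpl1 and Spaca5 were lower.
Gramd2, chr9:59707575-59707632, plus strand: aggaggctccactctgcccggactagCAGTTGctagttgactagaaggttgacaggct
Ccnb3, chrX:7041722-7041779, minus strand: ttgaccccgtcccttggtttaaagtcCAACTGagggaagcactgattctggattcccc
Stambpl1, chr19:34232534-34232591, plus strand: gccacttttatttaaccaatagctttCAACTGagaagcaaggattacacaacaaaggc
Spaca5, chrX:21068296-21068353, plus strand: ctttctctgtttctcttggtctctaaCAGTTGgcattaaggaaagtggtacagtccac

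The motif did not mark one side of the comparison. On either strand it was found in 13.3% of the 1228 promoters of genes called higher, in 12.1% of the 1120 of genes called lower and in 11.2% of the 14953 of all genes tested. GTTGCC, the core of an RFX half-site, was found in 13.4%, 16.5% and 13.2% in the same order. TGACGTCA, the cyclic AMP response element, was found in 2.61%, 3.57% and 2.78%, and TTTGAA in 12.5%, 14.5% and 12.4%. TTTCCCGC, an E2F motif, was found in 1.95%, 2.23% and 1.77%, and CNCCTCAG in 9.85%, 10.2% and 9.34%. A match of letters is a description of the sequence and no evidence of binding.

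Several genes had larger increases but did not lie above the other 4 arrays in both sets. Prss52, a testis serine protease, had 13.16 and 13.02 in X-XII against 8.73, 11.96 and 13.25 at the lowest, median and highest of the others, with a difference of 1.79 ± 0.46 (SE; limma adjusted p = 0.0482). Its highest values were in VIII-X. Ifitm7, an interferon-induced transmembrane protein gene, had 12.25 and 12.39 against 9.16, 10.96 and 12.26, with a difference of 1.52 ± 0.12 (SE; limma adjusted p = 0.00288). The values of XII-II/III replicate 1 and of X-XII replicate 1 were all but equal. These genes were picked for their size after their values were seen.

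**Figure D3:**
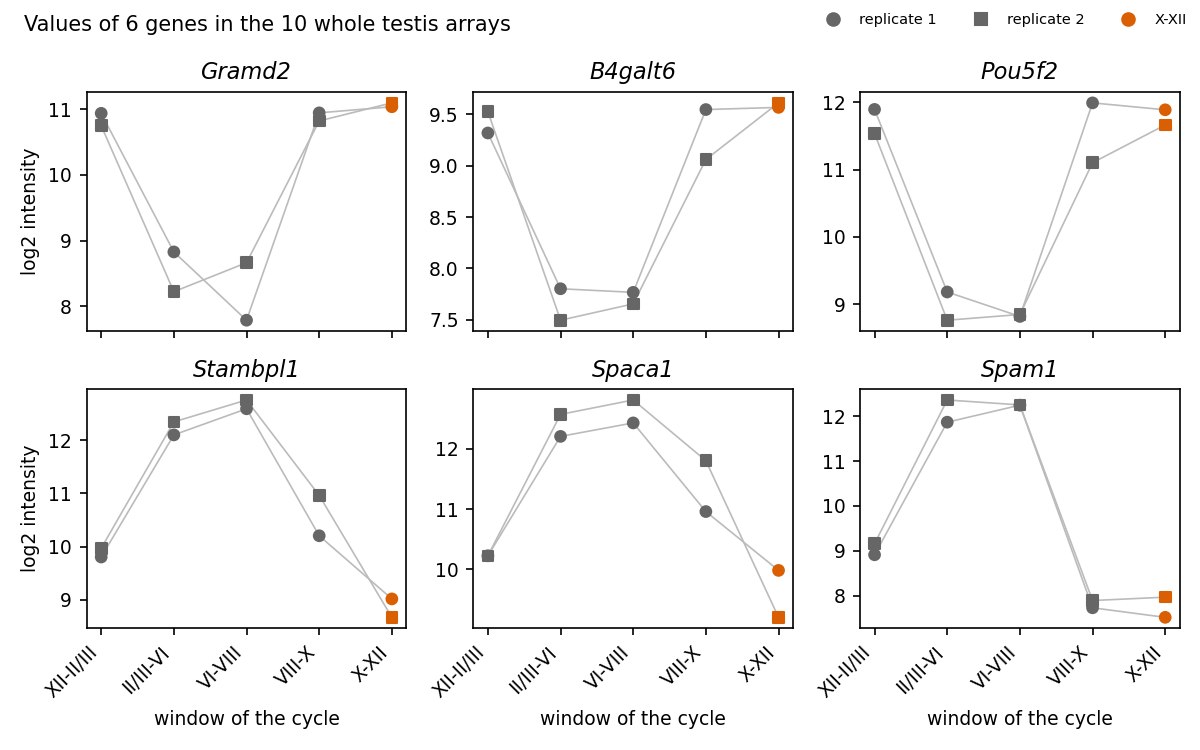
Log2 intensity of 6 genes in the 10 whole testis arrays, by window, with circles for replicate 1, squares for replicate 2 and X-XII in orange. Gramd2, B4galt6 and Pou5f2 are high in X-XII and both neighbouring windows, and Stambpl1, Spaca1 and Spam1 are high in II/III-VI and VI-VIII and low in X-XII.

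Among the decreases, Stambpl1, a deubiquitinating enzyme, had 9.02 and 8.67 in X-XII, and 9.81 at the lowest, 11.53 at the median and 12.75 at the highest of the others. Both arrays lay below all others, and replicate 2 was the lower one. The difference was -2.49 ± 0.18 (SE; limma adjusted p = 0.00275). Against VIII-X the difference was -1.74 ± 0.23 and against XII-II/III -1.04 ± 0.23, with adjusted p of 0.451 and 1.

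Fam24b had 9.70 and 9.89 in X-XII against 10.75, 12.31 and 13.43 in the others. The X-XII arrays lay below the rest by more than they differed from each other. Its difference was -2.37 ± 0.12 (SE; limma adjusted p = 0.00173). Cldn34b4, a claudin-like gene with close relatives on the X chromosome that its probes may also read, had 7.73 and 7.56 against 8.73, 10.43 and 11.38, and its difference was -2.52 ± 0.16 (SE; limma adjusted p = 0.00234).

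Mroh9, a HEAT repeat gene, had 8.22 and 8.41 against 8.69, 10.82 and 12.14, and its difference was -2.30 ± 0.15 (SE; limma adjusted p = 0.00247). Aqp8, a water channel, had 8.26 and 8.56 against 8.73, 10.74 and 12.09, with a difference of -2.09 ± 0.17 (SE; limma adjusted p = 0.00306). For both, the lowest of the other arrays was VIII-X replicate 1, close to the X-XII values.

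In some of the decreases the 2 replicates differed. Lyzl6, a lysozyme-like gene of sperm, had 10.05 in replicate 1 and 8.80 in replicate 2 of X-XII against 9.60, 11.87 and 12.73, and Spata31 had 10.06 and 8.95 against 9.76, 12.15 and 12.80. In both genes X-XII replicate 1 lay above the lowest of the other arrays, XII-II/III replicate 2, though below the 4 of its own set. Their differences were -2.08 ± 0.38 and -2.20 ± 0.33 (SE; limma adjusted p = 0.0192 and 0.0117). Spata31 belongs to a family of near copies, so its value is uncertain. The others of the 15 were Nipsnap3a (-2.08), Spaca1 (-2.05), 4930558K02Rik (-2.03), Ccdc81 (-2.03), Prr27 (-2.02), Serpina3a (-1.94), Adam26a (-1.94) and Phf8-ps (-1.94). Serpina3a and Adam26a belong to families of similar genes, and Phf8-ps is named as a pseudogene, so their values are uncertain too.

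Germ cell and somatic genes were read in 23 gene lists that held 462 tested members, beginning with meiosis. Each share below stands beside 7.77% called higher and 7.46% called lower of all genes tested. A share near these values marks nothing particular to a list. Among 11 regulators of meiotic entry, 2 were called higher (18.2%) and 2 lower (18.2%), with a median difference of 0.12. Ccnb3, a cyclin of meiotic prophase, had 9.23 and 9.40 in X-XII against 6.91, 7.85 and 9.36 in the others. The X-XII values matched those of XII-II/III, and the difference was 1.25 ± 0.16 (SE; limma adjusted p = 0.00793). Its means in II/III-VI and VI-VIII, 7.13 and 7.03, lay under the filter of 8.15 log2 units, so the size of this increase is uncertain. Gm960, which encodes a partner of SPO11 in break formation, rose by 0.43. Rec8, the meiotic cohesin subunit, had 9.34 and 9.32 against 9.43, 10.48 and 11.43, and its difference was -1.11 ± 0.09 (SE). Ythdc2, an RNA helicase needed for the switch from mitosis to meiosis, fell by 0.41. Stra8, the retinoic acid target that opens the meiotic programme, had 8.15 and 8.24 in X-XII, a difference of 0.15 with an adjusted p of 0.252, and its highest window mean, 8.71, was in VIII-X.

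Of 18 tested genes of the synaptonemal complex and meiotic cohesin, 1 was called higher (5.56%) and 4 lower (22.2%). Terb1, which tethers meiotic telomeres to the nuclear envelope, rose by 0.50. Tex12, a central element protein of the synaptonemal complex, fell by 0.54, Smc3, a cohesin subunit, by 0.37, Sycp1, the transverse filament protein, by 0.33, and Trip13, an ATPase that removes HORMA domain proteins from synapsed axes, by 0.25. Sycp3, the axial element protein, differed by -0.01 (adjusted p = 0.953).

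Of 22 tested genes of meiotic recombination, 4 were called higher (18.2%) and 3 lower (13.6%), and the median difference was 0.05. Dmc1, the meiotic recombinase, had 10.19 and 10.04 in X-XII against 8.69, 9.71 and 10.06, with a difference of 0.54 ± 0.06 (SE; limma adjusted p = 0.00606). Its lowest values were those of VI-VIII. Brca2, which loads recombinases, rose by 0.37, Spo11, which makes the breaks, by 0.34 and Hsf2bp, a partner of BRCA2, by 0.20. Tex15 fell by 0.55, Msh4, a crossover factor, by 0.50 and Spata22, a single-strand binding factor of meiosis, by 0.47. The list thus held calls in both directions.

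Of 19 tested regulators of pachytene and diplotene, 4 were called higher (21.1%) and 1 lower (5.26%), with a median of 0.05. Pou5f2, a POU domain transcription factor of male germ cells, had 11.89 and 11.66 in X-XII against 8.76, 10.14 and 11.99 in the others. X-XII shared its high level with VIII-X replicate 1 and both arrays of XII-II/III, and the difference was 1.51 ± 0.15 (SE; limma adjusted p = 0.00502). Cdk2, a kinase needed in meiotic prophase, rose by 0.54, Ovol1, a zinc finger factor of pachytene progression, by 0.35 and Mybl1, the pachytene transcription factor A-MYB, by 0.26. Cdc25c, a phosphatase that activates CDK1, fell by 0.52.

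Genes of M phase and chromosome segregation had 12 of 46 tested members called higher (26.1%) and 3 lower (6.52%), beside 7.77% and 7.46% of all genes, and a median difference of 0.15. Of these genes, 31 had their highest window mean in XII-II/III and 3 in X-XII. The median difference of the list was 0.22 from VIII-X and -0.12 from XII-II/III. Aurkb, the kinase of the chromosomal passenger complex, had 11.63 and 11.83 in X-XII against 9.94, 10.69 and 11.90 in the others, with XII-II/III at the same height. Its difference was 0.84 ± 0.17 (SE; limma adjusted p = 0.0282). Fbxo43, an inhibitor of the anaphase-promoting complex in meiosis, had 12.09 and 12.18 against 10.24, 11.41 and 12.10, a difference of 0.84 ± 0.12 (SE; limma adjusted p = 0.00971).

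The other M phase genes that rose by most were Kif2c, a microtubule-depolymerizing kinesin (0.47), Nek2, a centrosomal kinase (0.45), Cdca8 and Birc5, partners of Aurora B (0.44 and 0.42), Sgo2a, a protector of centromeric cohesin (0.37), and Cit, a kinase of cytokinesis (0.35). Cdk1, Bub1b, Prc1 and Knl1 were called higher as well. Cks1b, a CDK-binding protein, fell by 0.51, Wee1, an inhibitory kinase of CDK1, by 0.39 and Cenpa, the centromeric histone, by 0.35. Plk1 had 12.47 and 12.82 in X-XII, a difference of 0.03 with an adjusted p of 0.944.

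Of 24 tested genes of DNA replication, 0 were called higher (0%; 2 at an unadjusted p under 0.05) and 2 lower (8.33%), with a median of -0.07. Ccna2, the S phase cyclin, fell by 0.54 and Mcm3, a subunit of the replicative helicase, by 0.34. Of 14 genes of undifferentiated spermatogonia, Lhx1 alone was called higher (7.14%), by 0.36, and 0 were called lower (1 at an unadjusted p under 0.05). Of 12 genes of differentiating spermatogonia, 0 were called higher (0 at an unadjusted p under 0.05) and 4 lower (33.3%). These were Sohlh2, a transcription factor of spermatogonial differentiation (-0.48), Esx1 (-0.47), Dazl, a germ cell RNA-binding protein (-0.41), and Cited1 (-0.32). Kit, the stem cell factor receptor, differed by -0.21 (adjusted p = 0.247).

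**Figure D4:**
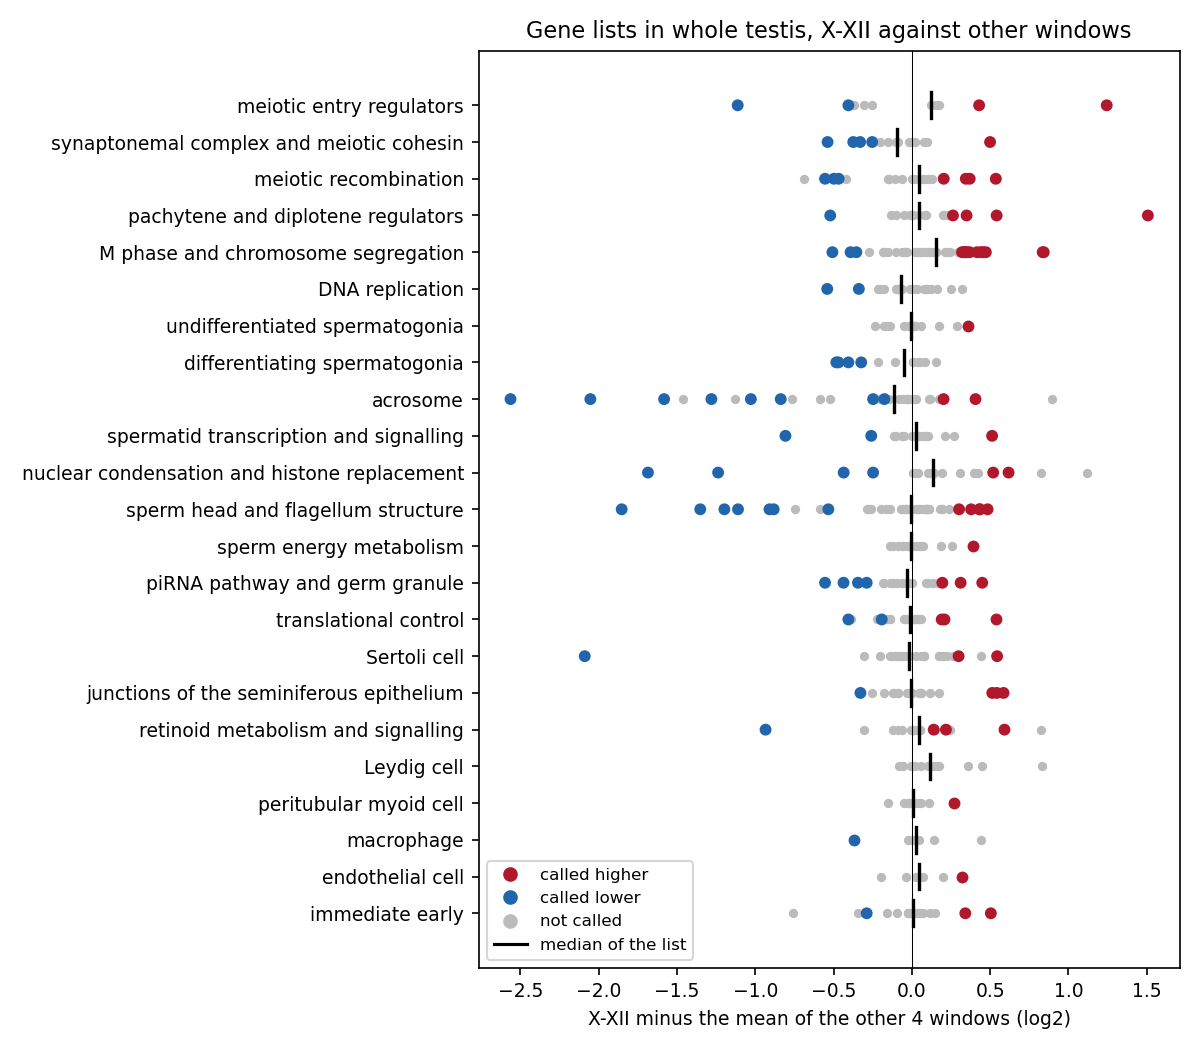
Difference between X-XII and the mean of the other 4 windows (log2) for the tested members of the 23 gene lists, 1 point a gene, in red where called higher, blue where called lower and grey where not called by limma, with a black bar at the median of each list. The M phase list has 12 red points and a median of 0.15, and the acrosome list reaches down to -2.56.

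Of 30 tested acrosomal genes, 8 were called lower (26.7%) and 2 higher (6.67%), beside 7.46% and 7.77% of all genes. The median difference was -0.12, with -0.06 from VIII-X and -0.003 from XII-II/III. Spam1, the sperm hyaluronidase PH-20, had 7.51 and 7.96 in X-XII against 7.73, 10.51 and 12.36 in the others. VIII-X was as low as X-XII, XII-II/III lay in between, and II/III-VI and VI-VIII were the highest. The difference was -2.56 ± 0.10 (SE; limma adjusted p = 0.000954). Both X-XII values lay under the 25th percentile of all log2 values (8.15), the level used as a filter, so the size of this decrease is uncertain.

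Spaca1, an acrosomal membrane protein, had 9.98 and 9.21 in X-XII against 10.23 at the lowest and 12.80 at the highest of the others, and its difference was -2.05 ± 0.27 (SE; limma adjusted p = 0.00838). Spaca5, a lysozyme-like acrosomal protein, had 8.33 and 7.40 against 7.89, 9.75 and 10.67, with a difference of -1.58 ± 0.27 (SE; limma adjusted p = 0.0161). In both, X-XII and XII-II/III were the low windows. For Spaca5 the lower X-XII value, 7.40, and the lowest of the others, 7.89, lay under the level used as a filter. The size of the Spaca5 decrease is therefore uncertain. Zp3r, which binds the zona pellucida, fell by 1.28, Spaca4 by 1.03, Spaca3 by 0.84, Spaca7 by 0.25 and Acr, the protease acrosin, by 0.17. Fam71f1 and Spata16, both needed for acrosome formation, rose by 0.41 and 0.20. Acrv1, an acrosomal vesicle protein, had 13.22 and 12.50 in X-XII and a difference of -0.59 with an adjusted p of 0.114.

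Of 17 genes of spermatid transcription and signalling, 1 was called higher (5.88%) and 2 lower (11.8%). Gmcl1, a nuclear envelope protein, had 12.51 and 12.52 in X-XII against 11.39, 12.11 and 12.40, so both arrays lay above all others, and it rose by 0.51. Tssk4, a testis-specific serine kinase, fell by 0.81 and Crem, a transcription factor of round spermatids, by 0.26.

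Genes of nuclear condensation and histone replacement split: of 22 tested, 2 were called higher (9.09%) and 4 lower (18.2%), with a median of 0.14. H2al2a, a histone variant of condensing spermatids, had 12.22 and 12.03 against 10.54, 11.75 and 12.20, a difference of 0.62 ± 0.08 (SE; limma adjusted p = 0.00751). Hils1, a linker histone variant of elongating spermatids, rose by 0.52. Nutm1, a cofactor of histone hyperacetylation in spermatids, had 8.39 and 9.13 against 8.77, 10.55 and 11.84, a difference of -1.69 ± 0.22 (SE; limma adjusted p = 0.00834). H2ab1, another histone variant of the testis, fell by 1.24, H2ax by 0.43 and H2bc1, a testis H2B, by 0.25.

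The transition proteins were high in X-XII without being called. Tnp1 had 13.37 and 13.26 in X-XII, a difference of 1.12 ± 0.46 (SE; adjusted p = 0.16), with window means of 10.81 in VI-VIII and 13.23 in VIII-X. Tnp2 had 13.76 and 13.86, a difference of 0.83 ± 0.42 (adjusted p = 0.252). Prm1 and Prm2, the protamines, differed by 0.15 and 0.01 (adjusted p = 0.218 and 0.927), at log2 intensities near the top of the arrays' range.

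Of 47 genes of the sperm head and flagellum, 5 were called higher (10.6%) and 7 lower (14.9%), with a median of -0.01. Catsper3, a subunit of the sperm calcium channel, had 9.81 and 8.83 in X-XII against 9.40, 11.47 and 12.29, with a difference of -1.85 ± 0.27 (SE; limma adjusted p = 0.0112). Spag6, a protein of the central pair of the axoneme, had 11.09 and 11.16 against 11.30, 12.57 and 13.47, with a difference of -1.35 ± 0.11 (SE; limma adjusted p = 0.00317). Fsip1 fell by 1.20, Sun5, which joins head and tail, by 1.11, the tektins Tekt2 and Tekt4 by 0.91 and 0.53, and Kcnu1, a sperm potassium channel, by 0.88. The dynein heavy chain genes Dnah17, Dnah1 and Dnah8 rose by 0.43, 0.43 and 0.38, and the CatSper auxiliary subunits Catsperd and Catsperb by 0.48 and 0.30. Of 19 genes of sperm energy metabolism, Slc2a3, a glucose transporter, was called higher (5.26%), by 0.39, and 0 were called lower (1 at an unadjusted p under 0.05).

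Of 22 genes of the piRNA pathway and germ granule, 3 were called higher (13.6%) and 4 lower (18.2%). Henmt1, which methylates the ends of piRNAs, rose by 0.45, Exd1 by 0.31 and Tdrd6, a chromatoid body protein, by 0.20. Tex15 fell by 0.55, Asz1 by 0.44, Piwil2, a PIWI protein, by 0.34 and Mov10l1, a helicase of piRNA processing, by 0.29. Of 24 genes of translational control, 3 were called higher (12.5%) and 2 lower (8.33%). Pabpc6, a poly(A)-binding protein of the testis, rose by 0.54, and Tnrc6b and Eif4e1b by 0.21 and 0.19. Elavl1 fell by 0.19 beside Dazl.

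Of 27 tested genes of the Sertoli list, 2 were called higher (7.41%) and 1 lower (3.7%), the median being -0.02. Shbg, which encodes the androgen-binding protein, rose by 0.55 and Erbb4, a neuregulin receptor, by 0.30. The lower one was Aqp8, named above, with a difference of -2.09, the largest of the list in size. The mean log2 level of the 7 tested Sertoli markers was 10.64 and 10.77 in X-XII and 10.54 to 10.84 in the others. Of 19 genes of junctions in the seminiferous epithelium, 3 were called higher (15.8%) and 1 lower (5.26%). Cdh2, N-cadherin, had 12.54 and 12.53 in X-XII against 11.48, 12.02 and 12.44, a difference of 0.54 ± 0.05 (SE; limma adjusted p = 0.00323). Both arrays lay above all others. Ocln, a tight junction protein, rose by 0.59, Nectin2, an adhesion molecule, by 0.51, and Cldn12 fell by 0.33.

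Of 22 genes of retinoid metabolism and signalling, 3 were called higher (13.6%) and 1 lower (4.55%). Lrat, which esterifies retinol for storage, had 8.81 and 8.94 in X-XII against 8.95, 9.80 and 10.66, a difference of -0.93 ± 0.09 (SE; limma adjusted p = 0.00413). The X-XII arrays were the lowest of the 10. Rxrg, a retinoid X receptor, rose by 0.59, Rdh11, a retinol dehydrogenase, by 0.22 and Aldh1a2, a retinaldehyde dehydrogenase that makes retinoic acid, by 0.14. Stra6, a receptor of retinol-binding protein, differed by 0.04 (adjusted p = 0.938), and its highest window mean, 10.49, was in VIII-X.

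Of 14 tested Leydig cell genes, 0 were called in either direction by limma (2 higher and 0 lower at an unadjusted p under 0.05), with a median of 0.12. Star, which carries cholesterol into mitochondria, had 11.27 and 11.40 in X-XII, a difference of 0.83 ± 0.25 (SE; adjusted p = 0.0727). The mean level of the 6 tested Leydig markers was 11.13 and 11.15 in X-XII and 10.71 to 11.09 in the other arrays. Both X-XII arrays were the highest, by a narrow margin that crosses the sets. Star, with the largest difference of the list, is one of these markers, and its share in that margin was not tested. Of the 14 Leydig cell genes, 6 had their highest window mean in X-XII and 4 in VI-VIII. The mean level of the 7 spermatogonial markers was 9.36 and 9.45 in X-XII and 9.43 to 9.57 in the others. The part of cell proportions in the differences above was not tested.

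In the remaining lists, Mylk was called higher among 10 peritubular myoid genes (10%) and Egfl7 among 8 endothelial genes (12.5%), and 0 were lower in either list (0 at an unadjusted p under 0.05 in each). Adgre1, the macrophage antigen F4/80, was called lower among 10 macrophage genes (10%), by 0.37, with 0 higher (1 at an unadjusted p under 0.05). Among 19 immediate early genes, Jun and Jund rose by 0.50 and 0.34 (10.5%) and Fosl1 fell by 0.29 (5.26%). Jun had 10.09 and 10.04 in X-XII against 9.11, 9.49 and 10.06 in the others, so each X-XII array stood above the 4 of its set.

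Of the 89 list members named here under the rule, 21 were still called without X-XII replicate 1. Without X-XII replicate 2, only Fsip1 and Spam1 were, and with 1 or the other X-XII array left out no list had more than 1 member called higher.

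Genes on the X chromosome were 3.43% of the 11856 tested genes with a promoter entry, 1.39% of 935 called higher and 6.12% of 899 called lower. The counts were 407, 13 and 55.

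The Leydig polysome arrays of the same homogenates showed whether X-XII stood apart there too. In IP, 206 genes were called higher (1.39%) and 412 lower (2.79%) in X-XII against the other windows. Of the genes called higher in whole testis and measured in IP, 126 of 1150 (11%) were also called higher in IP, which was 61.2% of the IP calls. Of those called lower, 327 of 1097 (29.8%) were also called lower in IP, which was 79.4% of the IP calls. Spam1, a germ cell gene, differed by -2.43 in IP. Its IP values in X-XII were 5.92 and 6.65, under the whole testis filter of 8.15 log2 units, so this size is uncertain too. The fractions share homogenates, and germ cell RNA in the IP was not measured apart.

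The difference between the fractions was itself tested for 14775 genes. Both fractions came from the same homogenates, but the model did not pair them, so its errors and p-values leave that link out. The X-XII effect in whole testis minus that in IP was called higher for 2 genes (0.0135%) and lower for 19 (0.129%). Without the replicate block in the model these were 0 and 1 (100 and 207 at an unadjusted p under 0.05), and with median centring 1 and 18.

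Plin2, a lipid droplet coat protein, had 9.22 and 9.37 in whole testis X-XII against 9.29, 10.77 and 12.48 in the other windows, and 11.65 and 11.76 in IP against 11.70, 11.88 and 12.39. The whole testis values swung widely while the IP values lay close together. Its differences were -1.59 in whole testis and -0.26 in IP, and the difference between them was -1.34 ± 0.20 (SE; limma adjusted p = 0.0407). Lrp5, a WNT co-receptor, gave -1.33 in whole testis and -0.10 in IP.

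Bhlhe40, a clock-linked transcription factor, took the opposite form. In IP it had 11.25 and 11.96 in X-XII against 9.19, 9.57 and 10.25 in the others, with both arrays above all others, and it was higher by 2.04 ± 0.17 (SE; limma adjusted p = 0.000155). In whole testis it had 8.58 and 8.48 against 8.20, 8.40 and 8.60, a difference of 0.11 with an adjusted p of 0.26. These values lay little above the filter of 8.15 log2 units, so the size of the whole testis difference is uncertain. Ano6, a lipid scramblase, and Slc25a13, a mitochondrial aspartate-glutamate carrier, rose in whole testis by 0.63 and 0.56 and differed by 0.01 and -0.03 in IP.

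**Figure D5:**
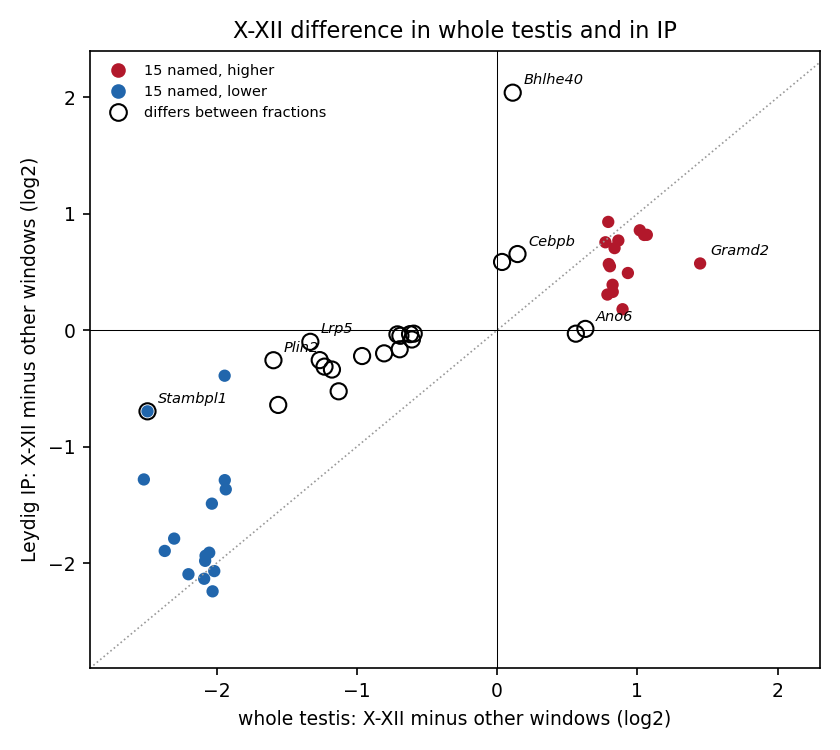
Difference between X-XII and the mean of the other 4 windows (log2) in whole testis (horizontal) and in Leydig IP (vertical) for the 15 genes named as higher (red), the 15 as lower (blue) and the 21 whose difference between fractions was called (open circles), with the dotted line marking equal differences. Bhlhe40 lies at 0.11 and 2.04, and Stambpl1 at -2.49 and -0.70.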

How the data were processed

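RNA of whole testis was measured on 10 GeneChip ST 1.0 arrays (5 windows, 2 replicates each), from 100 ng of amplified RNA. The authors deposited a linear intensity for each probe set, and the submitters' processing notes name RMA. Software, version and genome build: not given in the sources used here. All intensities were taken as log2.

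Of 28856 probe sets, 21789 had 1 gene symbol in the platform annotation, 1621 several and 5446 none, and those with 1 were used. By Entrez identifier 21698 matched RefSeq's gene table (GRCm38.p6), and 0 symbols changed. A gene with several probe sets (927 genes) was represented by the one with the highest mean. Genes were tested if listed in all 10 arrays with a window mean above the 25th percentile, 8.15 log2 units.

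limma 3.58.1 in R 4.3.3 (lmFit, eBayes, two-sided, Benjamini-Hochberg, threshold 0.05) fitted 5 windows with the replicate set as a block, with 4 residual degrees of freedom, and X-XII was contrasted with the mean of the other 4. The block is there because the sets were normalized apart; the pairing of replicate numbers is not stated, and 4 of 10 pairs of windows had deviations correlated over 0.1 (range -0.102 to 0.661). The comparison between fractions used all 20 arrays, with a replicate block in each fraction and no pairing by homogenate. The scripts were tested on simulated data. Arrays give no depth, and their number limits the precision.

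Named genes were the 15 largest increases and 15 largest decreases called in which X-XII lay outside the other 4 arrays in both sets, up to 5 each way of the calls against neighbouring windows and between fractions, and up to 8 called members a gene list. Members and lists were chosen with earlier results of these data known. Of 509 list genes, 23 had no probe set with a single symbol. Alternatives covered normalization, filters, probe sets, array weights, the block and each array left out. Comparisons with II/III-VI, with VI-VIII and with both neighbours together were added after seeing the data.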

Additional observations from a re-analysis of the deposited data

Results flagged for a closer look

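The X-XII difference was called unequal between whole testis and Leydig IP in 21 genes, the whole testis difference lying above that in IP in 2 and below it in 19. The 7 given here are both of the former and the 5 largest of the latter, with limma adjusted p from 0.0225 to 0.0463. The whole testis difference minus the IP difference (log2) was 0.62 for Ano6 and 0.59 for Slc25a13. It was -1.93 for Bhlhe40, -1.80 for Stambpl1, -1.34 for Plin2, -1.23 for Lrp5 and -1.01 for Prr32. Of these, Bhlhe40 differed in IP and was not called in whole testis, while Plin2, Lrp5, Prr32, Ano6 and Slc25a13 were called in whole testis and not in IP. Stambpl1 was lower in both, by 2.49 ± 0.18 (SE) in whole testis and 0.70 ± 0.14 in IP. Prr32 lay under 8.15 log2 units, the 25th percentile, in both whole testis X-XII arrays, so the size of its difference is uncertain. Bhlhe40 lay between 8.20 and 8.60 in whole testis, little above that level, so its whole testis difference is uncertain too.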

How the results depend on the processing

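The 1152 higher and 1106 lower calls were 0 and 0 when the 8 other arrays formed a single group with the replicate block, 28 and 164 with a difference of at least 1, and 0 and 15 with at least 2. Without the replicate block they were 898 and 976. Quantile normalization, median centring, filters, probe set means, array weights and all 20 arrays gave 1048 to 1483 higher and 1044 to 1295 lower. Leaving out each array gave 1 to 1170 higher and 38 to 1137 lower, with the lowest counts where a single X-XII array was left, whose spread was taken as that of the other windows. For II/III-VI the range was 1335 to 2423 and 1155 to 1877, for VI-VIII 1511 to 2822 and 1155 to 2097, and for the mean of both neighbours 0 to 0 and 0 to 3. Between the fractions the 2 and 19 calls were 0 and 1 without the replicate block, and 1 and 18 with median centring. No named difference changed direction in any alternative run. With 2 arrays a window, small differences from the neighbouring windows could not be told from replicate spread.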
